A study of Xenopus laevis with 2 samples.

Results

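Animal caps, the prospective ectoderm cut from the roof of the Xenopus laevis blastula, were compared with and without active EBF3 on 1 array with 2 colours. Embryos received 1 ng of mRNA for hGR-Xebf3, which is EBF3 fused to the hormone-binding part of the human glucocorticoid receptor, at the one-cell stage. Caps were dissected at stage 9, and 1 set was held in 30 µM dexamethasone (DEX) for 4.5 h, which lets the fusion protein act, while the other set was left untreated. The treated caps were labelled with Cy3 and the untreated caps with Cy5. These caps differ in DEX itself as well as in active EBF3, and the effects of both cannot be told apart on this array. Below, "with active EBF3" stands for the DEX-treated hGR-Xebf3 caps. The series held 1 other array, on which DEX-treated caps of embryos given 0.4 ng of mRNA for the receptor part alone (hGR) were set against the same kind of untreated hGR-Xebf3 caps, also in Cy5. The channels of that other array differ both in DEX and in the injected mRNA. None of the caps on either array received Noggin, so the untreated caps were not neuralised. Injected mRNA is passed on to the cells of the cap in general, so the fusion protein was not limited to 1 cell type. The 2 arrays share this reference and lie on different slides, which means that a slide effect and a group effect cannot be told apart, and a ratio on 1 array is not independent of that on the other. The labels give 1 biological replicate for each array, with no dye swap. No test between conditions was therefore possible, and the values below describe these 2 libraries.

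EBF (COE) proteins bind DNA as dimers that pair through a helix-loop-helix domain, and they are known for roles in the differentiation of neurons, lymphocytes, fat and muscle. Cap cells left alone become epidermis under BMP signals, and the same cells can be turned to neural, mesodermal or endodermal fates. The question put to the array was which transcripts of the cap differ in amount once EBF3 is active. It is described here by function of the annotated genes. The probes of the study's 14 neuronal candidates were left out of the ranked names but not of the counts, in which 5 of them are members and 1, a homeobox gene, is a higher transcription factor.

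Members were the gene probes whose spots were uniform and well above background in both channels, by the flags of the scanning software. They numbered 10690 of the 21495 gene probes. A further 384 probes were well above background only in the treated caps and 730 only in the untreated caps, while 9479 were so in neither channel and 212 were left out as non-uniform. The measure was the log2 ratio of processed signal, treated over untreated, where signals are in arbitrary units of brightness after dye normalization. The median processed signal over members was 1820 in each channel, and the median log2 ratio was 0.002. A member was counted as higher or lower where the channels stood at least 2-fold apart. By that measure 268 members were higher with active EBF3 (2.51%) and 258 were lower (2.41%), together 4.92%. On the hGR array 90 of 10422 probes were higher (0.864%) and 150 lower (1.44%) by the same rule, together 2.30%. The error given with a value is that of the spot, from the error model of the software, with a median of 0.229 on the log2 scale over members past 2-fold. It holds nothing of the spread between batches of embryos or of the choice of background correction.

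A gene name was given for 3235 members, of which 7.64% were past 2-fold, and 2361 of them fell in 1 of 9 function classes. The share past 2-fold differed widely between classes. It was 25.2% of 301 transcription factor members (46 higher and 30 lower) and 14.2% of 113 adhesion and matrix members (9 higher and 7 lower). For signalling it was 12.7% of 505 members, with 28 higher and 36 lower. Cytoskeletal members had 6 higher and 5 lower of 150 (7.33%), and metabolic members 6 higher and 13 lower of 364 (5.22%). The remaining named classes lay near or under the share over all members, from 4.39% of 205 transport members to 2.64% of 265 members of replication, cell cycle and chromatin. Class medians were close to 0 throughout, from -0.05 for replication, cell cycle and chromatin to 0.03 for transcription factors, so the classes differed in their tails and not in their centre. Of the transcription factors also measured on the hGR array, 7 were higher and 6 lower there of 270 (4.81%). Signalling members had 7 higher and 20 lower of 474 there (5.7%), and adhesion and matrix members 3 and 3 of 102 (5.88%). Over all 9944 members measured on that array the share was 2.17%, so these classes stood above it there too. Among the 7455 members without a gene name, 3.74% were past 2-fold.

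**Figure D1:**
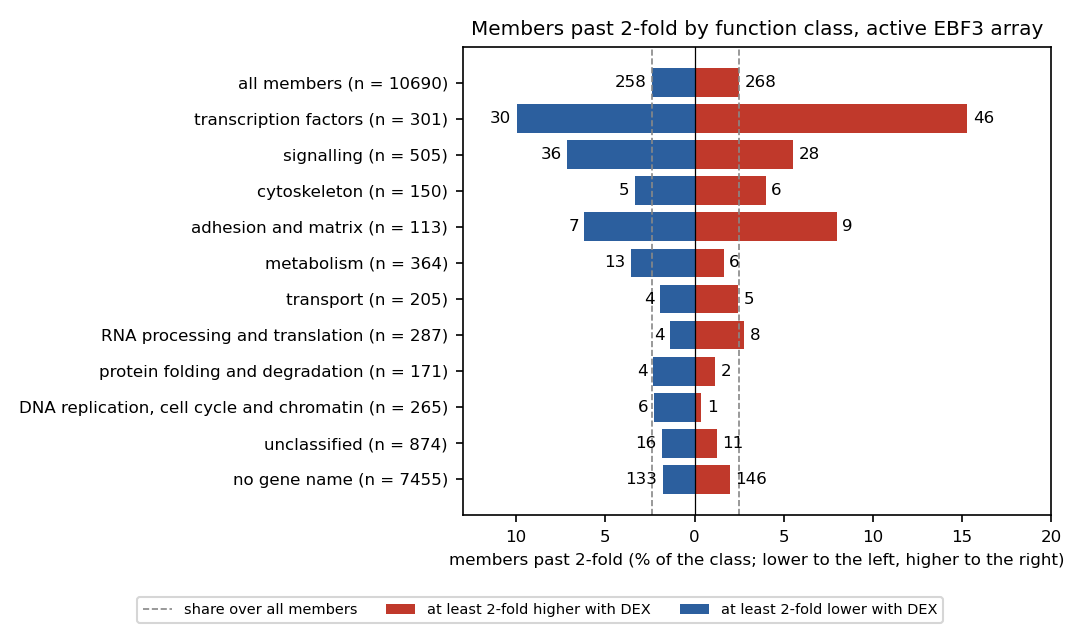
Share of members at least 2-fold lower (left, blue) or higher (right, red) with active EBF3 in each function class, in percent of the class, with the number of members at each bar and dashed lines at the share over all 10690 members. Transcription factors reach furthest on both sides, with 46 higher and 30 lower of 301.

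Among transcription factors the homeobox proteins, which bind DNA through a homeodomain and pattern the body axis and organs, had 16 members higher and 9 lower of 52 (48.1%). Forkhead proteins followed with 4 higher and 4 lower of 18 (44.4%). For bHLH proteins it was 6 and 2 of 30 (26.7%), and for zinc finger proteins 9 and 8 of 69 (24.6%). Of the T-box members 2 of 7 were higher and none lower, with a median log2 ratio of 0.72. Nuclear receptors, ligand-dependent factors that include the targets of DEX itself, had 1 higher and 1 lower of 26 (7.69%, beside 4.92% over all members). The families therefore differed in how often members passed 2-fold, and each of them except T-box had members on both sides.

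Outside the neuronal candidates, the highest transcription factors included regulators of muscle, mesoderm and endoderm. The probe for *myod1.L*, a bHLH factor that switches cells to skeletal muscle, read 68880 in treated and 645 in untreated caps, a log2 ratio of 6.74 ± 0.54 (spot error). A second myod-like probe, MGC52596, read 157246 against 2890 (5.76 ± 0.47). The related factor *myf5.L* stood at 3590 against 479 (2.90 ± 0.28). All of these myogenic bHLH signals were far higher with active EBF3, and on the hGR array the ratios were 0.83 and 0.55 for the *myod* probes. Their untreated signals differed between the arrays. In Cy5 on the hGR array *myod1.L* read 246, MGC52596 read 273 and *myf5.L* read 71.9, so the size of these ratios depends on which untreated value is taken. Over the 9944 probes measured on both arrays, 19 were at least 2-fold apart in Cy5 after centring, 18 of them brighter on the active EBF3 array, and 3 of the 19 were members at least 2-fold higher there.

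Homeobox and forkhead genes of mesendoderm came next. The probe for *bix1.1.L*, a Mix-family homeobox gene of the mesoderm and endoderm, gave 5050 against 257 (4.30 ± 0.37). For *foxa1*, a forkhead factor of endoderm, the signals were 9910 and 558 (4.15 ± 0.35). The signal of *foxf1*, which marks lateral mesoderm, was 18084 against 1270 (3.83 ± 0.33). The homeobox gene *not.L*, known from the notochord and its organizer precursors, was already well expressed without active EBF3, at 8750, and stood at 95165 with it (3.44 ± 0.31). The other members among the 8 highest were *lmo2.S* at 3.59 and AF338157, annotated as the iroquois gene Irx4, at 3.41.

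Below these ranks, several of the other higher transcription factors are known from neurons, neural tube and neural crest. The neuronal bHLH gene *neurod1*, on another probe than that of the study's candidate, stood at 3.06. The autonomic neuron homeobox gene *phox2a.S* stood at 2.92, the neural progenitor gene *sox2.L* at 2.73, the neural crest gene *sox8* at 2.69 and the forebrain gene *six3* at 2.09. Crest and dorsal neural tube genes included *snai1.S* at 2.08, *foxd3* at 2.07 and *pax7.L* at 1.93. Genes of ventral and posterior mesoderm were among them too, such as *evx1.L* at 2.64, *nkx2-6.L* at 2.49, *hand2* at 1.5 and the caudal gene *xCAD2* at 1.08. Hedgehog effectors were represented by *gli2* at 2.34 and *gli3.L* at 1.21. Values on the hGR array stood beside or above some of these, with 2.63 for *tbx3* (2.08 with active EBF3), 2.24 for *gata3.S* (2.60), 1.45 for *gli3.L* and 1.09 for *hand2*.

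The lowest transcription factors included several genes known from ventral ectoderm and epidermis. The probe for *foxi1*, a forkhead gene of the ionocytes and epidermis, read 1730 in treated and 84292 in untreated caps, a log2 ratio of -5.61 ± 0.46. It also stood at -1.72 on the hGR array. The homeobox gene *ventx2.2.L*, a BMP target that represses dorsal genes, read 535 against 12885 (-4.59 ± 0.38), with 0.10 on the hGR array. The probes for *ventx2.1.S* and *ventx2.1.L* were at -5.76 and -4.80, and a *vent-1* sequence, BF611605, at -1.68, so these vent probes were lower together. The GATA factor *gata2.L*, another gene that BMP signals switch on in ventral ectoderm, stood at 1060 against 14890 (-3.81 ± 0.33) but at 1.11 on the hGR array. For *klf2*, a Krüppel-like zinc finger factor, the signals were 1050 and 13179 (-3.65 ± 0.32). The other members among the 8 lowest were *klf17.L*, of the same family, at -5.04 and the Ets factor *elf1.L* at -4.61, whose second probe stood at -3.39.

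Other lower members included further genes of early and non-neural ectoderm. Both probes for *foxi4.2*, a forkhead gene of early ectoderm, were lower, at -3.47 and -1.76, and *prdm1*, a zinc finger repressor, stood at -3.40. The distal-less genes *dlx3* and *dlx5*, which mark non-neural ectoderm, were at -1.94 and -1.65. The stress and secretion factor *xbp1* was at -2.46 and the E-box repressor *hes5.10.L*, a target of Notch, at -2.81. On the hGR array *xbp1* stood at 0.39, but *hes5.10.L* was lower there too, at -1.41. The anterior gene *otx1.L* (-1.40) and the iroquois gene *irx1.L* (-1.88) were lower as well, so genes known from neural ectoderm stood on both sides.

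**Figure D2:**
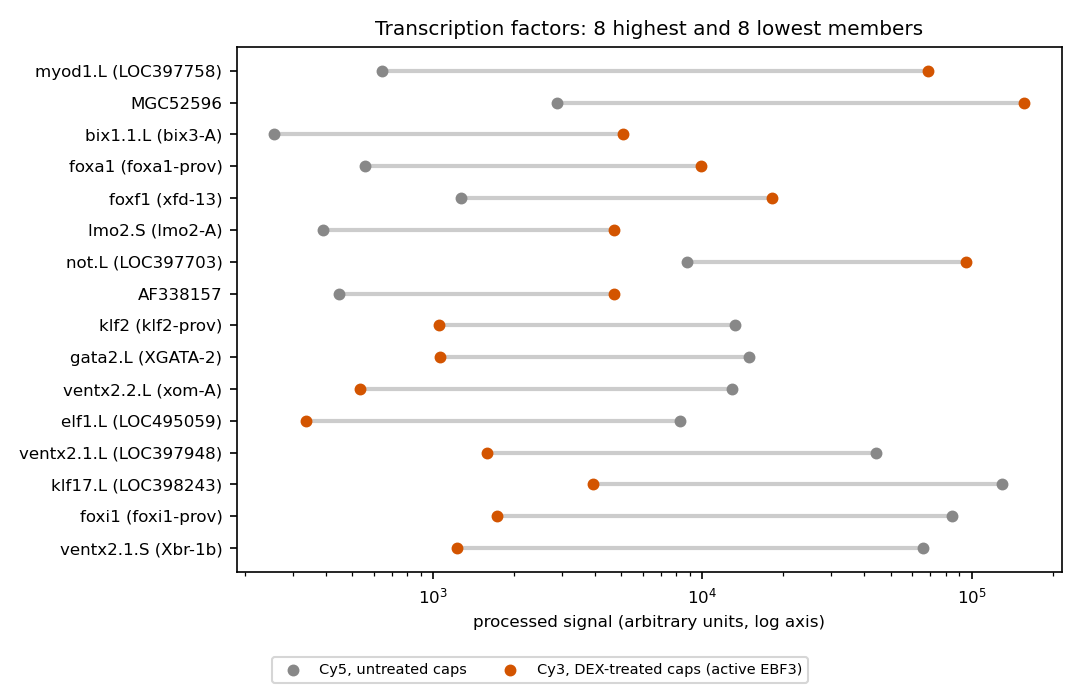
Processed signals (arbitrary units, log axis) of the 8 highest and 8 lowest transcription factor members outside the neuronal candidates, in untreated caps (grey, Cy5) and in DEX-treated caps with active EBF3 (orange, Cy3), 1 spot each. The lines run from 645 to 68880 for *myod1.L* at the top and from 65996 down to 1220 for *ventx2.1.S* at the bottom.

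Where a gene was well above background in 1 channel only, the ratio is a bound. Such a probe passed through its bright channel, so its direction was fixed beforehand, and only the size of the bound is described. The bound reached 2-fold for 20 of 26 transcription factor probes seen only in treated caps, beside 103 of all 384 such probes, and for 10 of 26 seen only in untreated caps, beside 77 of all 730. The neural crest and neural plate gene *zic5.S* was at least 16.8-fold higher, after *tal1.S* and *hhex.L* (at least 22.3-fold and 20.8-fold). In the other direction, the Notch-responsive gene *esr10-A* was at least 13.9-fold lower, *irx2.L* at least 9.21-fold and *ventx1.1*, a further vent gene, at least 7.27-fold.

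Probes for the injected factor and for DEX itself give the background to these values. The *ebf3.L* probe read 105 and 90 and was well above background in neither channel, so it does not report the injected mRNA. Of the probes for the related gene *ebf2*, *ebf2-A* read 2080 against 331 (2.65 ± 0.28) and *ebf2-B* 1200 against 706 (0.77 ± 0.21), so they differed in size. On the hGR array *ebf2-A* was not well above background in Cy3, at 39 against 451. The endogenous glucocorticoid receptor *nr3c1.L* stood at 0.24. The probe for *tsc22d3*, a leucine zipper gene that glucocorticoids induce, read 226 in treated caps, not well above background, and 1540 in untreated caps, while on the hGR array it read 1210 and 1270.

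Signalling members belong to pathways that act in the blastula and gastrula. Wnt ligands bind Frizzled receptors, BMP ligands set ventral fate and are held back by secreted antagonists, and FGF acts through receptor tyrosine kinases and ERK. In the Wnt group 5 members were higher and 4 lower of 42 (21.4%), with *szl* counted here for its Frizzled-like domain. Of BMP, activin and TGF-beta genes 3 were higher and 4 lower of 41 (17.1%). FGF, receptor kinases and their ligands had 6 higher and 3 lower of 38 (23.7%). One of the lower, *tdgf1.3.L*, was counted here for its annotation as an FGF receptor ligand. Notch, hedgehog and retinoid genes had 1 higher and 4 lower of 27 (18.5%). Protein kinases and phosphatases, with 4 higher and 8 lower of 153, and G proteins with their receptors, with 5 higher and 11 lower of 173, were closer to the share over all members.

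Wnt pathway genes were the highest signalling members. The probe annotated as *wnt-2* read 12020 against 694 (4.11 ± 0.35). For *wnt11b.L*, a ligand that drives convergent extension, the signals were 25580 and 3620 (2.82 ± 0.27), while its ratio on the hGR array was -1.09. The Dickkopf co-receptor *kremen2.S*, which removes the Wnt receptor LRP6 from the membrane, stood at 4580 against 304 (3.91 ± 0.34). The ligands and this antagonist of Wnt signalling were thus higher in the same caps. Among receptors, *fzd2.S* was higher (1.89) and *fzd3.L* lower (-1.89), and the planar polarity gene *prickle1* was lower at -1.64, with -1.35 on the hGR array. The Wnt enhancer *rspo2* stood at 1.03, and *tnks.S*, which destabilises axin, at -1.16 against -1.87 on the hGR array.

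BMP pathway members past 2-fold included lower feedback genes and ligand probes and higher dorsal antagonists. The lowest signalling member belongs beside them by function, although it was counted in the Wnt group. The signal of *szl*, a secreted protein related to Frizzled that protects chordin from cleavage and is switched on by BMP, was 458 against 19051 (-5.38 ± 0.44), and its other probe *szl.L* was at least 21.8-fold lower. Both *szl* probes ran the other way on the hGR array, at 1.7 and 1.9. The pseudoreceptor *bambi.L*, expressed together with BMP genes, read 9530 against 98580 (-3.37 ± 0.30). Probes for *bmp7* were lower at -2.43 for *bmp7-prov* and -1.22 for MGC68434, and the BMP-binding protein *twsg1* was at -1.72. In contrast the antagonists *chrd.1.S* (1.17), *grem1.L* (1.27) and *tsku.S* (1.53) were higher, although a second *tsku.S* probe was under 2-fold at 0.72. On the hGR array these 2 *tsku.S* probes stood at 0.85 and 0.79, the second no lower than with active EBF3. There *chrd.1.S* was at -1.61 and *grem1.L* at -0.07.

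Of 7 FGF ligand probes 3 were members, 2 of them higher and none lower, and 3 were well above background in neither channel. For *fgf8.L*, a ligand of mesoderm and neural plate, the signals were 10575 and 1900 (2.48 ± 0.25), and for *fgf20.L* 1400 and 237 (2.56 ± 0.30), while *fgf2* lay at -0.33. The *fgf9.S* probe was well above background only in treated caps and at least 5.72-fold higher. Beside them *dusp6.S*, a phosphatase that ERK signalling induces and that switches ERK off, read 25861 against 5210 (2.31 ± 0.24), and the MAP kinase phosphatase MGC68682 stood at 2.20. Eph receptors and ephrins, which guide cell sorting, included *epha2.L* (1.53), *ephB4a* (1.5) and *efnb1.L* (1.05). On the lower side were the receptor *fgfr4.L* (-1.78), the growth factor *pdgfb* (618 against 4060, -2.72 ± 0.27) and *tdgf1.3.L*, a Nodal co-receptor of the EGF-CFC family, at -2.36. The FGF and receptor kinase members past 2-fold thus lay on both sides.

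Of the Notch and retinoid members past 2-fold, all but 1 were lower. The retinoic acid hydroxylase *cyp26a1.S* read 3000 against 37910 (-3.66 ± 0.32), and the retinoid isomerase *rpe65* stood at -2.31. A probe annotated as similar to delta-like 1, MGC52561, was at 920 against 7360 (-3.0 ± 0.28), and the fringe gene *rfng.L* at -1.13. The single higher gene, *nrarp.S*, a feedback inhibitor that Notch induces, read 55826 against 12061 (2.21 ± 0.23). Among small GTPases, *ras-dva1.L* was lower at -2.55, but at 1.16 on the hGR array, and 2 probes for *rhou.L* were lower at -2.47 and -1.58.

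**Figure D3:**
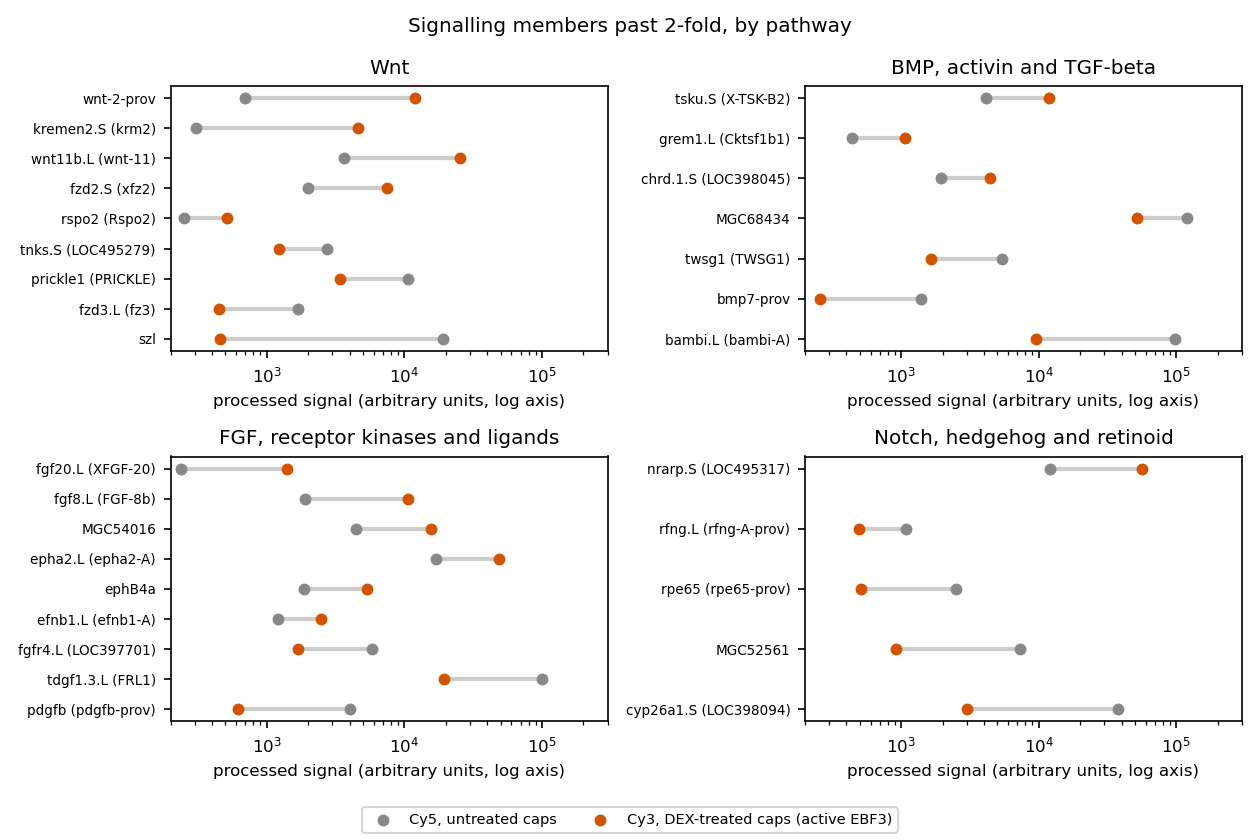
Processed signals (arbitrary units, log axes) in untreated (grey, Cy5) and DEX-treated caps (orange, Cy3), 1 spot each, of the signalling members past 2-fold in the Wnt, BMP, FGF and Notch, hedgehog and retinoid groups. The longest lines are those of *szl*, from 19051 down to 458, and *wnt-2-prov*, from 694 up to 12020.

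Adhesion and matrix members past 2-fold lay on both sides, with adhesion receptors and collagens among the higher ones and probes for hyaluronan synthesis among the lower ones. The leucine-rich repeat protein *flrt3*, which binds FGF receptors and unc5 guidance receptors, read 3910 against 551 (2.83 ± 0.27), and its second probe, *flrt3.L*, 525 against 236 (1.15 ± 0.35). Its relative *flrt2* was at 2.09. The laminin-binding integrin chain *itga3* was at 11066 against 1800 (2.62 ± 0.26), and the fibrillar and cartilage collagens *col1a2* and *col9a3* stood at 2.20 and 2.75. Thrombospondin 3 (*thbs3*) was seen in treated caps only and was at least 4.58-fold higher.

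On the lower side lay 2 probes annotated as hyaluronan synthase or its relative, the enzyme that makes a large sugar polymer of the embryonic matrix. The probe *has-rs.S* read 47606 against 468062 (-3.30 ± 0.30), and the DG42 probe MGC52910 62043 against 356116 (-2.52 ± 0.25). Both were above 0 on the hGR array, at 0.52 and 0.83. The heparan sulphate sulphotransferase *hs3st1.L* was at -2.59, with 1.34 on the hGR array, and the syndecan-binding protein syntenin (MGC52622) at -3.01. The junction protein *nectin1.L* stood at -2.47, and at -1.9 on the hGR array, which leaves -0.56 after subtraction. A cadherin sequence, L29057, was the lowest of the class at -4.60, while protocadherin 18 (MGC52553) was higher at 1.15. Across the 26 cadherin and junction members, 1 was higher and 1 lower (7.69%, beside 4.92% over all members) and the median was -0.18. With another background correction and loess, 45.5% of the class members past 2-fold were higher, in place of 56.2%.

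Cytoskeletal members past 2-fold were mainly intermediate filaments and muscle genes. Of 24 intermediate filament and septin members, 2 were higher and 4 lower, and of 76 actin and myosin members 4 were higher and 1 lower. The 4 higher ones include *popdc2.S*, a membrane protein that the sorting placed in this group. None of the 50 tubulin and microtubule members was past 2-fold. Epidermal keratins made up the lower end. The probe for *krt70.L* read 1100 against 31169 (-4.83 ± 0.40) and that for a gastrula epidermal type I cytokeratin, MGC68905, 3250 against 74606 (-4.52 ± 0.38), with -0.61 and 0.18 on the hGR array. The *krt70.S* probe was much brighter, at 415421 against 815528, and its ratio of -0.97 was just under 2-fold. Near-identical keratin transcripts may share signal between such probes.

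Probes for other filaments lay on both sides. The neuronal filament gene *ina* read 27379 against 9860 (1.47 ± 0.20) on a probe that stood at -1.99 on the hGR array, while its 2 other probes were not members. The *prph.L* probe, annotated as peripherin, a filament of neurons, and not the probe of the study's candidate, was seen only in untreated caps (108 against 509) and was at least 2.47-fold lower. Of the vimentin probes, *vim4* was higher at 1.51 and *vim1* lay at -0.14. The embryonic myosin light chain *myl4.L* was at 2020 against 262 (2.95 ± 0.30) and *popdc2.S*, a membrane protein of striated muscle, at 7160 against 1170 (2.61 ± 0.26). Adducin 3 (*add3.L*), a cap protein of actin and spectrin, stood at 1.33. The split between higher and lower in the class was 54.5% higher, but 41.7% with median centring alone.

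Metabolic members were the nearest of the 5 main classes to the share over all members. None of 73 members of mitochondrial energy metabolism was past 2-fold. Of 54 members of amino acid and nucleotide metabolism 5 were lower and none higher (9.26%, beside 4.92% over all members). Of the 52 in the latter group also measured on the hGR array, 3 were lower and 1 higher there. Enzymes that act on amino acids were among the lowest. Arginase (*arg1.L*), which splits arginine into ornithine and urea, read 1730 against 20564 (-3.57 ± 0.31). Glycine amidinotransferase (MGC53198), which uses arginine to make the creatine precursor, was at 1620 against 11932 (-2.88 ± 0.27), and histidase (*hal.1.L*), which acts on histidine and is known from epidermis, at 14626 against 63757 (-2.12 ± 0.23). Both arginine-using enzymes were thus lower in treated caps, and on the hGR array they stood at -0.26 and 0.05.

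Other metabolic genes acted on nucleotides, sugars and lipids. The fucosyltransferase *fut1*, the second lowest of the class, was at -2.97 and the prostaglandin dehydrogenase *hpgd* at -2.13. The nucleotidase *nt5c3a.L* was lower at -2.40, but almost as low on the hGR array, at -2.28. For *ctps1.S* the ratio was -1.23, and it was lower still on the hGR array, at -1.67. Of the ceramide glucosyltransferase probes, *ugcg.S* was at -1.29 and *Ugcg* at 0.05. On the higher side, alkaline phosphatase (*alpl*) read 65604 against 10430 (2.65 ± 0.26) and the mitochondrial lipid transfer gene *prelid3b.S* stood at 2.67. The last enzyme of cholesterol synthesis, 7-dehydrocholesterol reductase, was higher on 2 probes, MGC53052 at 2.12 and *dhcr7* at least 11.8-fold, the latter seen in treated caps only.

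**Figure D4:**
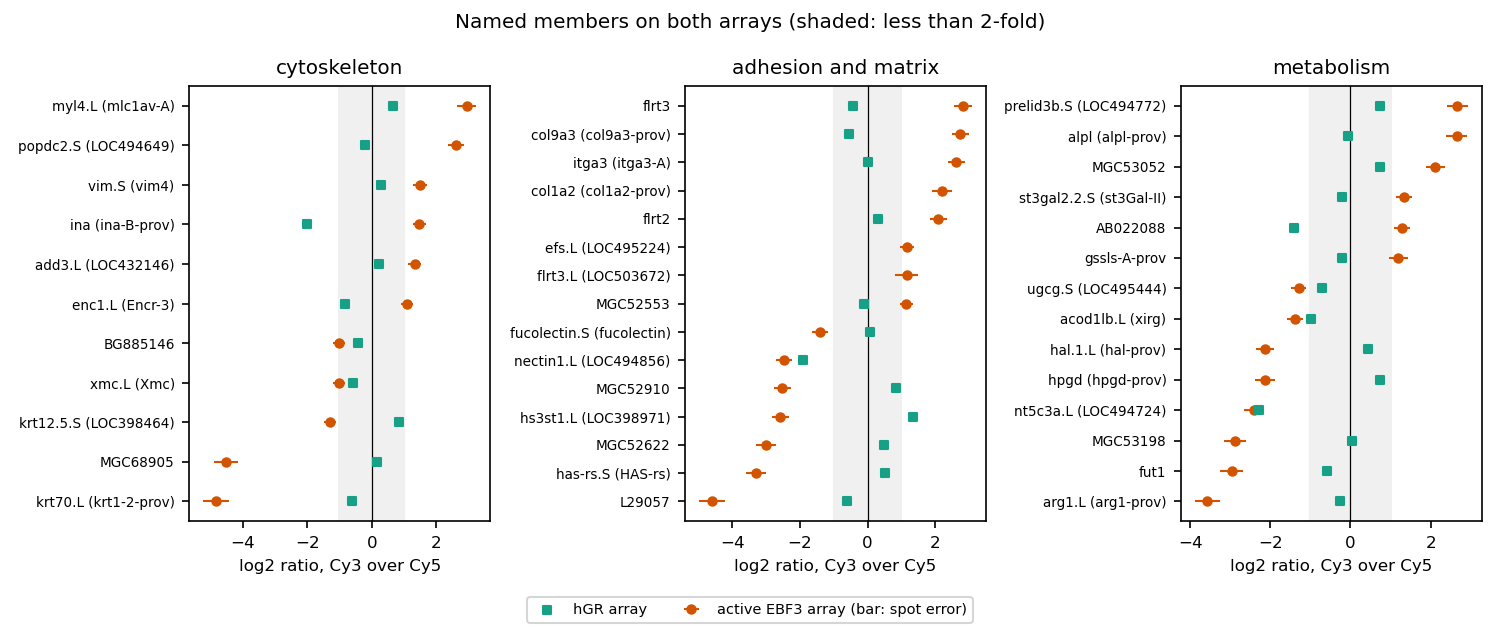
Log2 ratio of Cy3 over Cy5 of the cytoskeletal, adhesion and matrix, and metabolic members named by rank, on the active EBF3 array (orange circles, bars are the spot error) and on the hGR array where both channels were well above background there (green squares); the shaded band is under 2-fold. Most hGR values lie in the band, with exceptions such as *ina* at -1.99, *nectin1.L* at -1.9 and *nt5c3a.L* at -2.28.

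Several genes had more than 1 probe among the members. Of 20 pairs of such probes in which at least 1 was past 2-fold, 17 had the same sign and 8 had both probes past 2-fold the same way. In 6 of the pairs the probes are named for the L and S homeologs, the gene copies of the duplicated genome. The 3 with opposite signs were vimentin, the death receptor *tnfrsf10b.L* and the ceramide glucosyltransferase.

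Cell type markers were then counted by list, for the cap tissue and for the fates it can take. Of 23 epidermal marker probes 14 were members, 7 of them lower and none higher, with a median log2 ratio of -1.13 beside 0.002 over all members. Their summed processed signal was 719236 in treated and 1342451 in untreated caps. Most of both sums came from 1 probe, *krt70.S* (415421 and 815528), which was itself under 2-fold. The simple epithelial keratins *krt8.1.S* (162688 against 152084) and *krt18-prov* (102830 against 86553) were nearly level, at 0.10 and 0.25, so these simple keratins were not among the lower ones. Other keratin members of the list were under 2-fold as well, namely the adult keratin *krt12.6.S* (0.06), *krt78.8.L* (-0.50) and *krt70.S* (-0.97). So were the transcription factors grainyhead-like-1 (AY591750, -0.65) and *tfap2a.S* (-0.59). On the hGR array the epidermal median was -0.04, with 1 of 13 lower.

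The markers of the other fates differed in single genes more than as lists. Of 16 neural marker probes 8 were members, 3 higher (*neurod1*, on another probe than that of the study's candidate, *sox2.L* and *elavl3.L*) and 1 lower, with a median of 0.37 and sums of 262267 and 183750. The neural genes *sox3* (0.22) and *zic2* (0.52) were under 2-fold, and both NCAM probes were well above background in neither channel. The mesoderm list had 5 members of 8 probes, 2 higher (*chrd.1.S* and *eomes.L*) and none lower, while both brachyury probes were well above background in neither channel. The *eomes.L* ratio was 1.19, and a second eomesodermin probe outside the list, *eomes.S*, was under 2-fold at 0.72. On the hGR array they stood at 0.60 and 0.66. The endoderm list had 6 members of 12, 2 higher (*foxa1* and *gata5.L*) and none lower, and *sox17a.L* was level at -0.12. The *gata5.L* ratio was 1.11, with 0.71 on the hGR array, where *foxa1* stood at 0.38.

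In the muscle list 8 of 23 probes were members, 2 higher and 1 lower, with a median of 0.35 and summed signals of 117998 and 38331. Without *myod1.L* the sums were 49118 and 37687 and the median 0.29. Most of both sums came from 1 probe, LOC397760 (36743 and 22925), annotated as myosin heavy chain B without mention of muscle. The higher ones were *myod1.L* and *myf5.L*, and the lower one was BG885146, annotated as a skeletal muscle myosin light chain kinase. Myogenin (*myog.S*) stood at 0.40 and skeletal actin (*acta1*) at 0.24. As many as 12 probes of the list, contractile genes among them, were well above background in neither channel. The MGC52596 probe, annotated as similar to myogenic differentiation 1, did not match the pattern used for this list and is not in these counts. The blood and endothelium list had 2 members of 6 probes, *lmo2.S* higher and *gata2.L* lower, while *tal1.S* and *hhex.L*, named above with their bounds, were seen only in treated caps and the other 2 probes in neither channel. In bulk caps, fewer cells of a type and less RNA per cell cannot be told apart, and the part of cell composition in the values above was not tested.

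**Figure D5:**
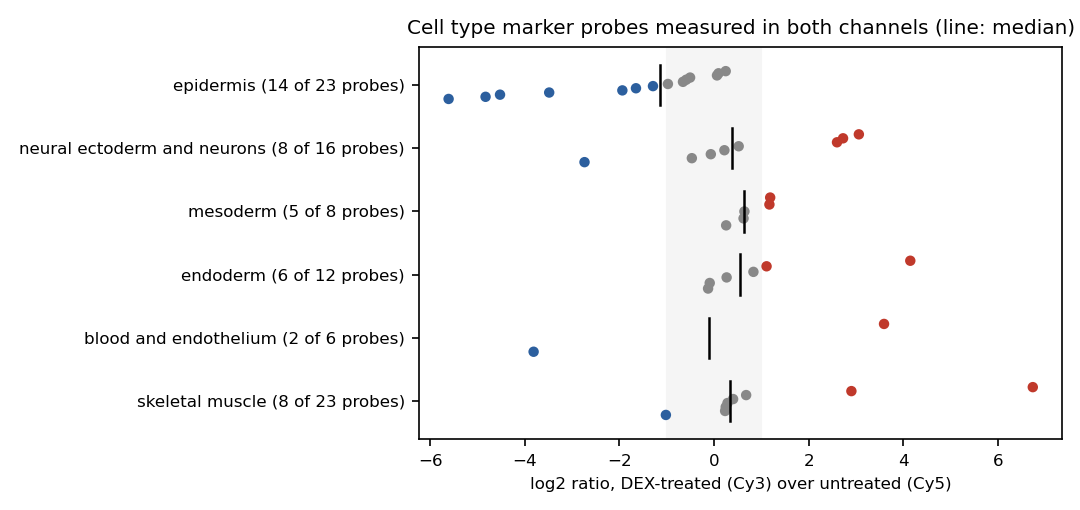
Log2 ratio of Cy3 over Cy5 of the marker probes measured in both channels, by list, 1 point a probe, with the median of each list as a black line and colour for probes at least 2-fold higher (red) or lower (blue). The epidermal list has its median at -1.13 with 7 of 14 probes lower and none higher.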

How the data were processed

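Per the file headers, the authors extracted spot intensity with Agilent Feature Extraction 8.1.1.1, and the deposited processed signal of each channel had its background subtracted and its dyes balanced by LOWESS on each array. The deposited log10 ratio and its error are of Cy5 over Cy3. The authors' value table of the series holds 16142 values for this array, each equal within 0.001 to the log10 of Cy3 over Cy5, with a column median of -0.001 (-0.0015 for hGR). The log2 ratio used here was computed from the deposited processed signals, with Cy3 as the treated sample after the methods of the study, over control-free, uniform spots well above background in both channels. The spot error is the deposited log10 error on the log2 scale. Of the members, 5 were saturated in a channel and none of these was past 2-fold.

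Genes were sorted into 9 classes by word patterns on the deposited descriptions, gene names and matched symbols. Where none of these patterns matched, patterns on the symbol alone were used. Of the gene probes, 3653 matched a symbol in RefSeq (assembly Xenopus_laevis_v10.1). The symbol served for naming, for the classes and marker lists, and for joining probes of the same gene. A few genes are not reported here by name. Names beginning MGC, LOC or with an accession are those of the array design. The members, classes, marker lists and names were chosen with earlier results of these data known, and class and marker patterns were corrected after values had been seen. Genes named in full were the 8 highest and 8 lowest past 2-fold in each of the 5 main classes, outside the 14 neuronal candidates, and marker list members. Other genes of a family, pathway or class were named after their values were seen. For a probe well above background in 1 channel, the fold is a bound: the bright signal against the higher of the dim signal and the lowest such signal that passed the flag in the dim channel, with channels scaled by Aquantile first, and it is open to dye bias. Normexp (offset 50), loess and Aquantile were run in limma 3.58.1 under R 4.3.3, and the rest in Python 3.11.15 with pandas 2.3.3. The counting was tested on simulated data. Alternatives were normexp with loess, median centring with or without the LOWESS curve, other filters on dim or non-uniform spots, the value table, distinct genes, and subtraction of the hGR array. With 1 array per comparison no p-value was computed. The flag was passed in Cy3 by 51.5% of gene probes with active EBF3 and 48.7% with hGR alone, and in Cy5 by 53.1% and 57.1%. The SD of the log2 difference between the Cy5 signals of the arrays was 0.16 over 9944 probes.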

Additional observations from a re-analysis of the deposited data

How the results depend on the processing

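Neither array has a replicate, so none could be left out. No paired analysis was possible because a group consisted of a single array. With normexp background correction and loess, 163 members were higher and 165 lower (268 and 258 in the report), with 7 cytoskeletal, 12 metabolic and 3 protein folding members past 2-fold (11, 19 and 6). With at least 1 channel well above background, 428 were higher and 398 lower, with 19 cytoskeletal and 17 transport members (11 and 9). Over the brighter members alone, 142 were higher and 153 lower, with 42 transcription factors, 40 signalling, 7 adhesion, 12 metabolic, 7 RNA and 3 protein folding members (76, 64, 16, 19, 12 and 6), since fewer members were counted. After subtraction of the hGR array, 13 protein folding and 12 replication and chromatin members were past 2-fold (6 and 7). The cause of the shifts under normexp was not tested. The share of higher among all past 2-fold was 51.0%, and 41.5% with median centring alone. For transport it was 55.6%, and 71.4% with normexp. For transcription factors it was 60.5%, but 47.5% with the hGR array subtracted (29 higher and 32 lower) and 45.2% over the brighter members (19 and 23). The excess of higher transcription factors was therefore not kept under every setting. The hGR subtraction covers only members well above background in both channels on both arrays, 270 of the 301 transcription factors. Of the 8 highest and 8 lowest it leaves out *bix1.1.L* and AF338157, both higher. The filter and the subtraction thus cannot be told apart in this split. For RNA processing and translation the share of higher was 66.7%, and 37.5% with the hGR array subtracted.

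None of the 72 members named by rank changed sign under the settings in which it could be measured. With normexp 61 of 72 stayed past 2-fold, and the 11 that did not were *vim.S*, *enc1.L*, *xmc.L*, BG885146, *efs.L*, *flrt3.L*, MGC52553, *fucolectin.S*, *st3gal2.2.S*, AB022088 and *gssls-A-prov*. With the hGR array subtracted 59 of 65 did, *nectin1.L* (-0.56) and *nt5c3a.L* (-0.13) being among those that did not. One value per gene kept 70 of 72. About 49.7% of the gene probes were well above background in both channels, and dim genes outside them were not measured. Spots in 1 hybridisation limit the precision, and dye bias was not balanced.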

Other observations

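Of the 153 RNA processing members 7 were higher and 3 lower (6.54%, beside 4.92% of all members and 7.64% of members with a gene name). The genes named from them were chosen after their values were seen. The myogenic and cardiac RNA-binding protein *rbm24* read 15109 against 1770 (log2 ratio 3.10), *elavl3.L*, of the neuronal Hu family, 4760 against 784 (2.60), and *celf3*, a splicing regulator of neurons, 4040 against 701 (2.53), beside 1.06 on the hGR array. There *elavl3.L* stood at 0.98 and *rbm24* at 0.40. Both probes for *msi1*, the Musashi protein of neural progenitors, were higher, at 2.43 and 1.63, with 0.52 and 0.96 on the hGR array. In contrast 1 of 134 ribosome and translation members was higher and 1 lower.

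Among the other classes, the glucose transporter *slc2a1.L* was higher at 2.93 and the small heat shock protein *hspb7.L*, known from heart and muscle, at 3.16. The syntaxin *stx19.L* was lower at -4.54 (1170 against 27310), as was the epidermal protease gene *xepsin* at -3.48. Of the 265 members of replication, cell cycle and chromatin 1 was higher, cyclin D1 (*ccnd1*, 1.26), and 6 were lower. Among the lower ones were 2 probes for the S-phase cyclin *ccne2*, at -2.62 and -1.0, the second only just 2-fold. On the hGR array these 2 probes stood apart, at -0.305 and 1.07. The antiproliferative gene *btg5.2.S* stood at -2.64 here and at 1.47 on the hGR array. The arrestin gene *sag.L* was low on both arrays, at -3.59 and -4.01.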
